A study of Mus musculus with 2 samples.

Results

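Troponin is the calcium switch of the thin filament of striated muscle, and the 8 mouse genes that encode its subunits were followed here in hearts that lacked Med1 in cardiomyocytes. The members were the genes that bear a troponin I, T or C symbol for striated muscle, and all 8 were found among the 22882 gene symbols of the files, each on 1 row. They were Tnni3, Tnnt2 and Tnnc1, the isoforms of adult heart, Tnni1 and Tnnt1, the isoforms of slow skeletal muscle, and Tnni2, Tnnt3 and Tnnc2, the isoforms of fast skeletal muscle.

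The complex has 3 subunits. Troponin C binds calcium, troponin I holds the filament off until calcium arrives, and troponin T ties the complex to tropomyosin. In rodent heart the slow skeletal troponin I gene Tnni1 is used before birth and gives way to Tnni3 in early postnatal life, while troponin C is the product of Tnnc1 throughout, a gene that slow skeletal muscle uses too.

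Control mice carried loxP-flanked Med1 alleles (Med1fl/fl). The csMed1-/- mice carried the same alleles together with Cre recombinase under the cardiac α-MyHC promoter, which acts in cardiomyocytes from late embryonic life, so the other cells of the heart kept Med1. All mice were 23 days old, of the C57BL6/J background and of both sexes. Heart RNA of 5 mice per genotype was pooled. Polyadenylated RNA of each pool gave 1 library, read as fragments per kilobase of transcript, scaled to the mapped fragments (FPKM).

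With 1 library per genotype there were no replicates, so no difference between genotypes could be tested and every ratio below compares these pools. A ratio past 2-fold was counted as a difference in level. Among the 10489 expressed genes, those detected in both libraries that reached 1 FPKM in either of them, 31.5% were past 2-fold, 18% lower and 13.6% higher in csMed1-/- heart, with a median log2 ratio of -0.07. Med1 itself was at 3.38 FPKM in the control and 0.412 FPKM in the csMed1-/- library. The heart markers Myl2 (20467 and 6571 FPKM) and Myl3 (17340 and 10278 FPKM) were abundant in both libraries. Actc1, the cardiac actin, was listed at 0 in the control and at 9189 FPKM in the csMed1-/- library, as were Mb (0 and 1040 FPKM) and the joint row of Myh6 and Myh7 (0 and 646.9 FPKM). These are genes that every heart uses, and no ratio was made for them. Summed FPKM was 780366 in the control and 716365 in the csMed1-/- library. The number of reads is not given in the sources used here. A step was seen among low values, at which 64 rows shared a ratio of 0.721 against a mean of 9.0 in windows beside it. If each library was scaled to its own mapped fragments, this gives a relative depth of 1.39 for csMed1-/- over control. The scaling between libraries is not stated, so the step may also hold a scaling factor.

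The troponin I and troponin T genes lie in pairs on the chromosomes. The windows printed here are the 250 bases before the transcription start given by RefSeq (GRCm38.p6). They are shown for the cardiac genes, which gave nearly all of the troponin transcript, and for the slow skeletal genes that lie beside them. Tnni1 and Tnnt2 have 2 windows each in the table, of which the first is shown. Capitals mark any match, on either strand, to one of 6 motifs. These were AGGTCA (bound by nuclear receptors), CATTCC (the MCAT element of TEAD factors), AGATAA (bound by Gata4 and its relatives), CANNTG (the E-box), TATAAA (the core promoter box) and, by name, the CArG box of serum response factor.
Tnni3 (chr7:4522529-4522778, minus strand): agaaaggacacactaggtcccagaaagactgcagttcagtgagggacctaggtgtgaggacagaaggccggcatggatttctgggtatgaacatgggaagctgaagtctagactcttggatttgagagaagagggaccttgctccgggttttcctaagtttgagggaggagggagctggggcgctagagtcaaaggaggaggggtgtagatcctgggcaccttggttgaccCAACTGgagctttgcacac
Tnnt1 (chr7:4515976-4516225, minus strand): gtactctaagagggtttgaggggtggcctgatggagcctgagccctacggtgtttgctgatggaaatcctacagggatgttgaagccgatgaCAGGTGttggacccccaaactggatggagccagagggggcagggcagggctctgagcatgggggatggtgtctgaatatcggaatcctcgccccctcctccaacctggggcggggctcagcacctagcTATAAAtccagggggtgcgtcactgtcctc
Tnni1 (chr1:135799171-135799420, plus strand): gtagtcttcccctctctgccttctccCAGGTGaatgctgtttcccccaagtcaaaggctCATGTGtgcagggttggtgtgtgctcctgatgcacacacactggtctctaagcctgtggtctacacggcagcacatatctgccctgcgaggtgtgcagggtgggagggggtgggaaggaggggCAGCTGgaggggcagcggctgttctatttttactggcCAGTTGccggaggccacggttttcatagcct
Tnnt2 (chr1:135836084-135836333, plus strand): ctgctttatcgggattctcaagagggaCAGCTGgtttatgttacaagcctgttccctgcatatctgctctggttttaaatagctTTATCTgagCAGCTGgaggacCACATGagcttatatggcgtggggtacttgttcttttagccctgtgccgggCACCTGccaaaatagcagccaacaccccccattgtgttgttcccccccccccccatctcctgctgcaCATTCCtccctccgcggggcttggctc
Tnnc1 (chr14:31208062-31208311, plus strand): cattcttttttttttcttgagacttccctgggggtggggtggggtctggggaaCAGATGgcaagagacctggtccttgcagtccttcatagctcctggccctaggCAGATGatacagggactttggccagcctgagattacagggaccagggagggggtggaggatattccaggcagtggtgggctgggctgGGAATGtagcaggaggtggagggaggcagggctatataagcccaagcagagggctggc

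Of the 8 members, 6 had a window in the RefSeq table, and Tnni2 and Tnnt3 had none. For Tnni1 and Tnnt2 the matches given are those of the first of 2 windows. The windows of Tnni3, Tnnt1 and Tnni1 lie inside the gene spans of the GENCODE annotation, so other annotated starts were not covered. In their windows Tnni3 and Tnni1, the troponin I genes whose levels went opposite ways, held E-boxes and no other motif of the list. Tnni3 had 1 match 19 bases before the start and Tnni1 had 4 matches. An E-box is found in 66.0% of the 27025 promoters of the table, so this is the common case. Tnnt2 held CATTCC at 27 bases and AGATAA at 166 bases before its start, beside 4 E-boxes, and Tnnc1 held CATTCC at 58 bases, beside 2 E-boxes. CATTCC occurs in 12.6% and AGATAA in 10.3% of all promoters. Tnnt1 was the member with TATAAA, at 30 bases, a motif of 13.0% of promoters. AGGTCA, present in 13.8% of all promoters, and the CArG box, present in 1.40%, were not found in these letters in any of the 6 windows.

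Troponin I was the subunit with the largest difference in amount. Tnni3, which encodes cardiac troponin I (chr7:4518305-4524229, minus strand, GENCODE M21 annotation of GRCm38), was at 10283 FPKM in the control and at 1537 FPKM in the csMed1-/- library, 6.69-fold lower (log2 ratio -2.74). It was the gene at rank 4 by FPKM in the control and at rank 76 in csMed1-/- heart. Among the 185 genes that reached 1000 FPKM in either library, 2 had a lower ratio than Tnni3, and these were Atp2a2, the calcium pump of the sarcoplasmic reticulum (3585 and 238.2 FPKM), and Fhl2, a LIM-domain protein of muscle (1748 and 175.0 FPKM). The annotation places part of Dnaaf3, not analysed here, on the same strand over Tnni3, so reads of that overlap are of uncertain origin. In pooled heart RNA, fewer cardiomyocytes and less RNA per cardiomyocyte cannot be told apart.

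Cardiac troponin T was lower by a smaller factor. Tnnt2 (chr1:135836354-135852260, plus strand) was at 2280 FPKM in the control and 1119 FPKM in the csMed1-/- library, a log2 ratio of -1.03. That is just past 2-fold, and 17.5% of the 10489 genes had a lower ratio. Centred on the median gene, its log2 ratio was -0.96, inside 2-fold. Among the 185 most abundant genes 24.9% were lower by more than 2-fold, so a gene of this level with this ratio was common.

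Troponin C did not share the difference. Tnnc1, the calcium-binding subunit of heart and slow muscle (chr14:31208312-31211729, plus strand), was at 4647 FPKM in the control and 5823 FPKM in the csMed1-/- library, a log2 ratio of 0.33, within 2-fold. It moved from rank 21 in the control to rank 7 in csMed1-/- heart. The gene lies inside Nisch on the opposite strand, which was at 84.3 and 111.7 FPKM. The libraries were directional, but whether counting used the strand is not given in the sources used here. Nisch was far below Tnnc1 in both libraries.

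**Figure D1:**
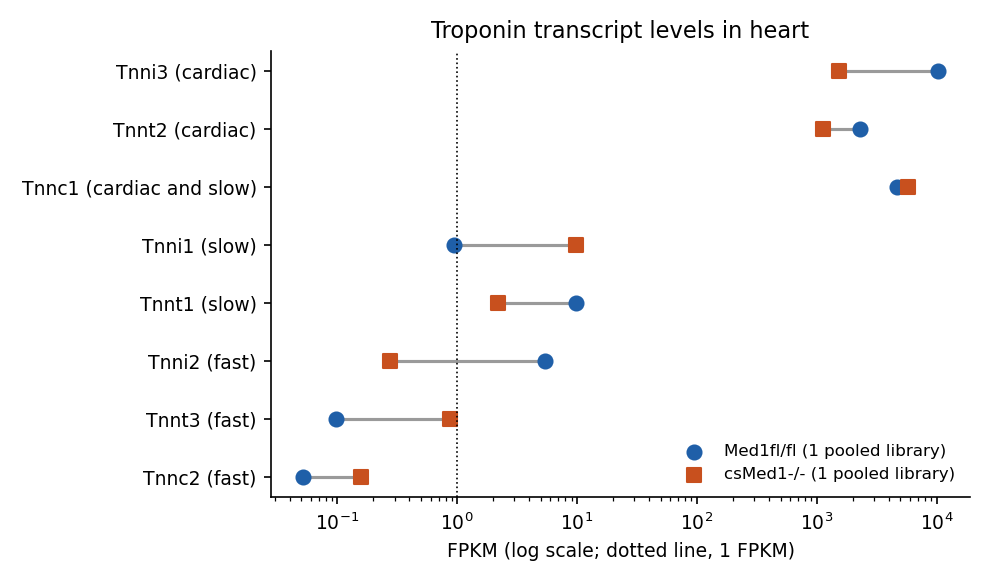
FPKM of the 8 troponin genes (log axis) in the control library (circles) and the csMed1-/- library (squares), 1 pooled library each and therefore without error bars. Tnni3 and Tnnt2 lie lower and Tnnc1 slightly higher in csMed1-/- heart, while the skeletal isoforms lie near or under 10 FPKM in both libraries.

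Set side by side, the transcripts of the 3 subunits stood in a different proportion in the 2 libraries. With all isoforms summed, troponin I was at 10289 FPKM, troponin T at 2290 FPKM and troponin C at 4647 FPKM in control heart. In csMed1-/- heart they were at 1547, 1122 and 5823 FPKM. Troponin I thus made up 59.7% of the summed troponin FPKM in the control and 18.2% in the csMed1-/- library, troponin T 13.3% and 13.2%, and troponin C 27.0% and 68.6%. Tnni3 stood at 2.21 times the FPKM of Tnnc1 in the control and at 0.264 times in csMed1-/- heart, an 8.38-fold shift. Tnnt2 stood at 0.491 times and 0.192 times the FPKM of Tnnc1, a 2.55-fold shift. Such ratios are formed within a library and do not depend on how the libraries were scaled to each other. All 8 genes together held 2.21% of the summed FPKM in the control and 1.19% in the csMed1-/- library.

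The slow skeletal troponin I gene went the other way. Tnni1 (chr1:135779434-135810989, plus strand), which encodes the isoform of slow muscle and of the fetal heart, was at 0.947 FPKM in the control and at 9.72 FPKM in the csMed1-/- library, 10.3-fold higher (log2 ratio 3.36). Tnni1 entered the 10489 expressed genes only through the csMed1-/- library, where it was higher, so its rank among them is a description alone. Of these genes, 119 had a higher ratio, which is 1.13%. Its share of the troponin I transcripts was 0.0092% in the control and 0.629% in csMed1-/- heart, so Tnni3 still held 99.4% of them. Relative to Tnni3, Tnni1 was 68.7-fold higher in the csMed1-/- library. In that library there was 1 unit of Tnni1 FPKM to 158 units of Tnni3 FPKM, against 1 to 10863 in the control.

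The slow skeletal troponin T gene did not follow Tnni1. Tnnt1 (chr7:4504570-4516382, minus strand) was at 9.77 FPKM in the control and 2.17 FPKM in the csMed1-/- library, 4.50-fold lower (log2 ratio -2.17). Its share of the troponin T transcripts was 0.427% in the control and 0.193% in csMed1-/- heart.

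The fast skeletal genes were low in both libraries and did not share a direction. Tnni2, which encodes fast troponin I (chr7:142441808-142444410, plus strand), was at 5.38 FPKM in the control and 0.276 FPKM in the csMed1-/- library, 19.5-fold lower (log2 ratio -4.29). It entered the 10489 expressed genes only through the control, where it was higher, so its rank among them is a description alone. Of these genes, 61 had a lower ratio. Tnnt3, fast troponin T (chr7:142498836-142516009, plus strand), was at 0.0967 and 0.867 FPKM, a log2 ratio of 3.16. The annotation places Prr33, not analysed here, on the opposite strand over Tnnt3, and its part in the Tnnt3 values was not tested. Tnnc2, fast troponin C (chr2:164777161-164779967, minus strand), was at 0.0517 and 0.158 FPKM, a log2 ratio of 1.61. Tnnt3 and Tnnc2 stayed under 1 FPKM in both libraries and were outside the 10489 genes.

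The number of reads behind these low values is unknown, so they were set beside the lowest values of like genes. Among genes above 0 with a longest transcript of like length, the lowest 1% of control values reached up to 0.0175 FPKM for Tnnc2 and 0.0132 FPKM for Tnnt3, so the control value of Tnnc2 was 2.95 times and that of Tnnt3 7.31 times that floor. The csMed1-/- value of Tnni2 was 24.3 times its floor. Adding 1 FPKM to both values brought the log2 ratio of Tnnt3 to 0.77 and that of Tnnc2 to 0.14. Tnnc2 also overlaps Ube2c, a cell cycle gene on the opposite strand, which was at 3.27 and 8.50 FPKM, a log2 ratio of 1.38. Its part in the Tnnc2 values was not tested.

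Of the 8 members, 4 were lower (Tnni3, Tnnt2, Tnnt1 and Tnni2), 3 were higher (Tnni1, Tnnt3 and Tnnc2) and 1 was within 2-fold (Tnnc1). All 8 were above 0 in both libraries, and of the 15930 genes of which that is true 35.7% were past 2-fold, 20% lower and 15.7% higher. Only 6 members passed the filter of 1 FPKM, Tnni1 through the csMed1-/- library and Tnni2 through the control alone, and 4 members reached 1 FPKM in both. The log2 ratios of the family spanned 7.65 units.

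**Figure D2:**
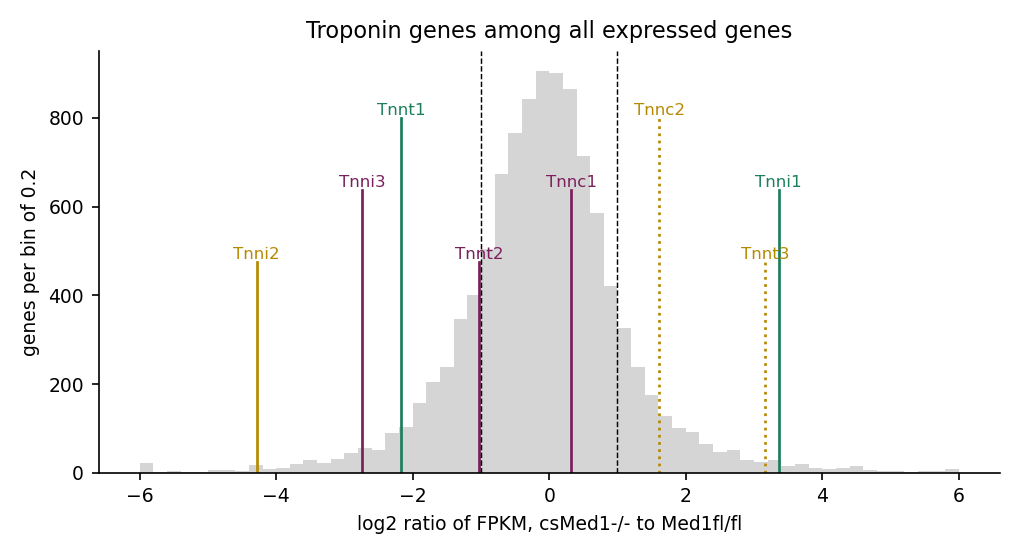
Log2 ratio of csMed1-/- to control FPKM for the 10489 expressed genes (grey histogram in bins of 0.2, with genes beyond 6 in the end bins), with the troponin genes as vertical lines. Dashed lines mark 2-fold and dotted gene lines mark Tnnt3 and Tnnc2, which were under 1 FPKM in both libraries. Tnni2, Tnni3 and Tnnt1 lie in the left tail, Tnni1 in the right tail, and Tnnt2 at the 2-fold line.

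**Figure D3:**
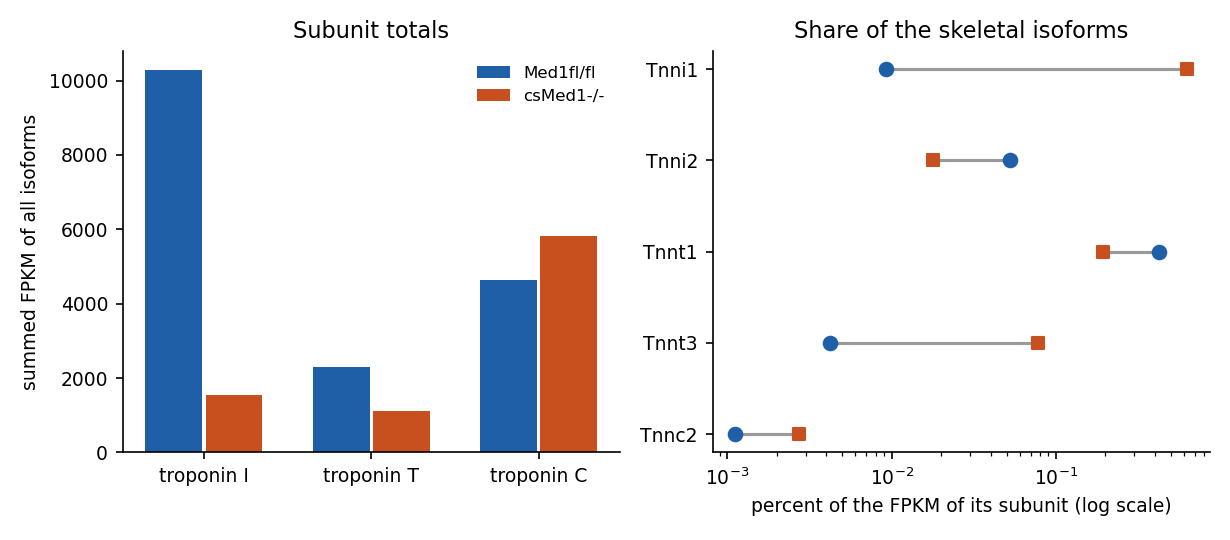
Left, FPKM summed over the isoforms of each troponin subunit in the control library (blue) and the csMed1-/- library (orange). Right, share of each skeletal isoform in the FPKM of its subunit (percent, log axis) in the control (circles) and csMed1-/- (squares) library, where Tnni1 goes from 0.0092% to 0.629% and each of the 5 stays under 1%.

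The genes are paired on the chromosomes, and the members of a pair did not share a direction in 2 of the 3 cases. Tnni3 and Tnnt1 lie 1922 bases apart on the minus strand of chromosome 7, with Tnnt1 downstream of Tnni3, and both were lower in csMed1-/- heart. Tnnt1 stood at 0.0950% of the Tnni3 FPKM in the control and at 0.141% in the csMed1-/- library. Whether reads running on from Tnni3 add to the low value of Tnnt1 was not tested. Tnni1 and Tnnt2 lie 25364 bases apart on chromosome 1, and there Tnni1 was higher and Tnnt2 lower. Tnni2 and Tnnt3 lie 54425 bases apart on chromosome 7, and Tnni2 was lower and Tnnt3 higher.

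The expressed genes nearest to the members were then examined. On the side of Tnni1 away from Tnnt2, the nearest expressed genes were Phlda3, a p53 target (16.4 and 86.8 FPKM, log2 ratio 2.405), and Csrp1, a LIM protein of smooth muscle (43.2 and 378.9 FPKM, log2 ratio 3.13). On the side towards Tnnt2 lay Lad1 (5.51 and 1.77 FPKM, log2 ratio -1.64), between a member that was higher and one that was lower. Beyond Tnnt2 came Tmem9 (18.2 and 23.7 FPKM) and Cacna1s, a calcium channel subunit (2.98 and 0.178 FPKM, log2 ratio -4.06). Ppp1r12c, which lies next to Tnnt1 and encodes a myosin phosphatase regulatory subunit, was at 34.4 and 74.9 FPKM, higher where Tnnt1 and Tnni3 were lower. Lsp1, between Tnni2 and Tnnt3, was at 36.2 and 18.3 FPKM. The 4 expressed neighbours of Tnnc1 (Nisch, Stab1, Sema3g and Phf7) had log2 ratios from 0.21 to 0.55, close to the 0.33 of Tnnc1. Over the 22 neighbours that are not members, 4 were lower and 4 higher past 2-fold and 14 were within it, beside the 31.5% of all expressed genes that were past 2-fold. That share is near the background.

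**Figure D4:**
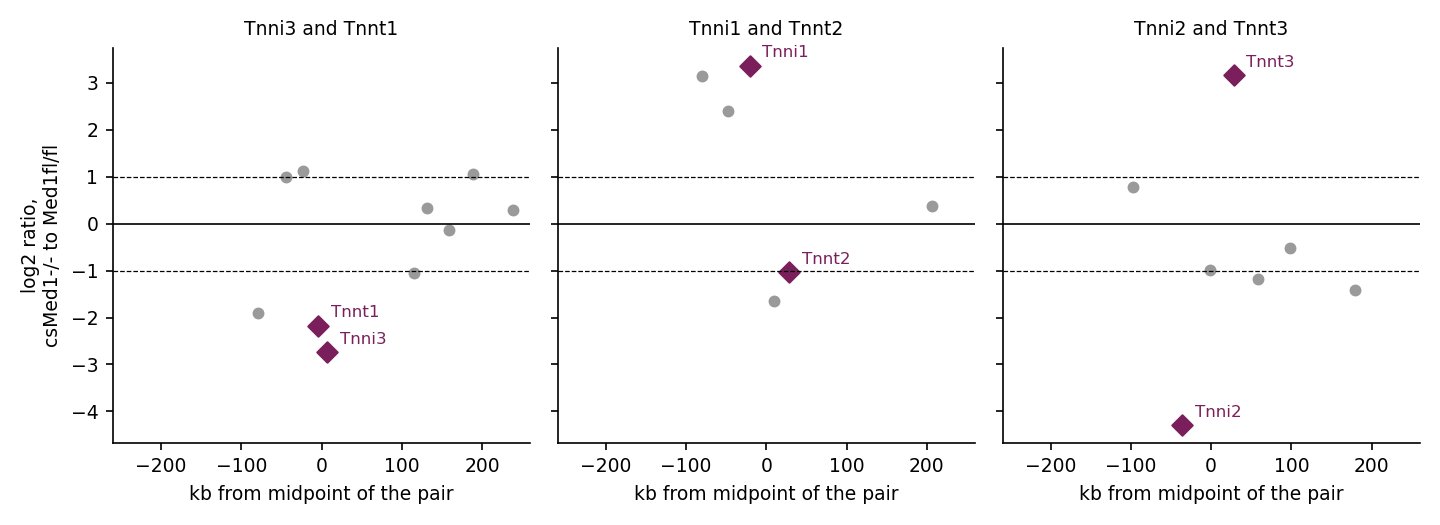
Log2 ratio of csMed1-/- to control FPKM for the paired troponin genes (diamonds) and the other expressed genes within 250 kb (grey), by distance from the midpoint of each pair, 1 library per genotype. Tnni3 and Tnnt1 both lie low at the centre of the left panel, whereas the members of the other pairs lie on opposite sides of 0.

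The partners of troponin on the thin filament included genes that were lower and genes that were higher. Of 17 listed genes 13 passed the filter, of which 4 were lower, 4 higher and 5 within 2-fold, with a median log2 ratio of 0.04. The lower and the higher genes were 30.8% each, beside 18% lower and 13.6% higher of all expressed genes. Acta1, the skeletal actin that fetal heart also uses, was at 207.1 and 2033 FPKM (log2 ratio 3.30). Tpm2, the β-tropomyosin, was at 15.6 and 159.4 FPKM (log2 ratio 3.35). The log2 ratios of these genes and the 3.36 of Tnni1 differed by less than 0.1, though the levels lay far apart. Xirp2, which binds actin (2.56 and 9.91 FPKM), and Tmod3, a capping protein of the pointed end (3.67 and 12.3 FPKM), were higher too. Tpm1, the main tropomyosin of heart, was at 10408 and 5085 FPKM, a log2 ratio of -1.03 that equals that of Tnnt2 to 2 decimals. Relative to Tpm1, Tpm2 was 20.9-fold higher in the csMed1-/- library. Tmod4, a tropomodulin of skeletal muscle, was at 10.7 and 0.126 FPKM (log2 ratio -6.41) and passed the filter only through the control. Of the leiomodins, which lengthen thin filaments, Lmod3 was at 11.4 and 1.12 FPKM and Lmod2 at 85.5 and 34.3 FPKM, both lower past 2-fold, while Lmod1 was at 0.634 and 0.783 FPKM. Within 2-fold were Tmod1 (75.6 and 38.3 FPKM), Tpm3 (23.8 and 25.9 FPKM), Tpm4 (11.6 and 8.86 FPKM), Nebl (1.90 and 1.95 FPKM) and Xirp1 (93.6 and 173.5 FPKM). Tmod2 and Neb, like Lmod1, were under 1 FPKM in both libraries. Actc1, also listed, was at 0 in the control and gave no ratio.

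The thick filament and other sarcomere genes were next examined. Of 14 genes that passed the filter, 6 were lower and 2 higher past 2-fold, with a median log2 ratio of -0.81. These are 42.9% and 14.3%, beside 18% and 13.6% of all expressed genes. Of the 185 genes that reached 1000 FPKM in either library, 24.9% were lower and 11.4% higher. Myom2, a protein of the M band, was at 343.7 and 31.7 FPKM (log2 ratio -3.44). Myoz2 (1362 and 368.2 FPKM) and Tcap (2235 and 646.4 FPKM), proteins of the Z disc, were lower by log2 ratios of -1.89 and -1.79. Myl4, the light chain of atria and fetal ventricles, was at 7.44 and 55.2 FPKM (log2 ratio 2.89), and relative to Myl3 it was 12.5-fold higher. The other gene that was higher was Des, the intermediate filament protein desmin, at 1871 and 4851 FPKM. Tnni3, at -2.74, lay below every gene of this list that passed the filter except Myom2. Myh6 and Myh7, which share a joint row, and Mybphl, at 0.239 and 0 FPKM, were also listed and gave no ratio.

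**Figure D5:**
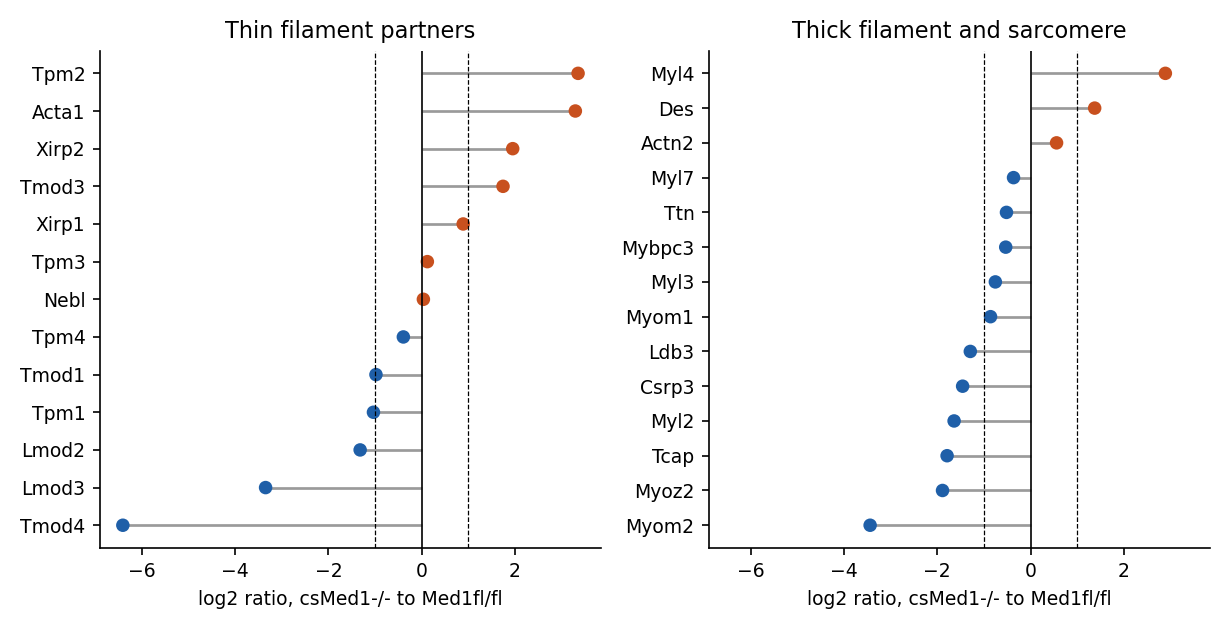
Log2 ratio of csMed1-/- to control FPKM for the thin filament partners (left) and the thick filament and sarcomere genes (right) that passed the filter, 1 library per genotype. Dashed lines mark 2-fold, blue points lie lower and orange points higher in csMed1-/- heart. Tpm2 and Acta1 stand out on the right of the left panel and Tmod4 on its left.

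Tnni1 belongs to the genes of the fetal heart, of which 11 were listed. Myh7, also on that list, has no row of its own and gave no ratio. Without Tnni1, a choice made after its values were seen, 9 genes of that list passed the filter, of which 6 were higher and 1 was lower past 2-fold, with a median log2 ratio of 2.16, beside 13.6% of all expressed genes that were higher and 18% that were lower. Nppa, atrial natriuretic peptide, was at 468.5 and 11114 FPKM (log2 ratio 4.57), and Nppb, brain natriuretic peptide, at 167.5 and 1480 FPKM (log2 ratio 3.14). The gene that was lower was Hcn4, a pacemaker channel, at 9.76 and 2.04 FPKM. Nppa and Myl4 are also atrial markers. Of 8 atrial markers 5 passed the filter, of which 3 (Nppa, Myl4 and Dkk3) were higher and 1 (Stard10) was lower past 2-fold, with a median log2 ratio of 1.71. Dkk3 was at 0.965 and 3.16 FPKM, so it passed only through the csMed1-/- library, and Stard10 was at 33.8 and 4.42 FPKM. Myl7 was at 1.42 and 1.10 FPKM, and Bmp10 was listed at 0 in both libraries. Sln, at 0.356 and 0.174 FPKM, and Mybphl, at 0.239 and 0 FPKM, were outside the filter. Over the 6 atrial markers above 0 in both libraries, 2 were lower and 3 higher, with a median log2 ratio of 0.67. Of all genes above 0 in both, 20% were lower and 15.7% higher.

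Since the troponin genes of slow and fast fibres were measured, markers of skeletal muscle were examined in the same libraries. Of 20 markers 18 had a row of their own and 6 passed the filter, 2 of them lower and 4 higher, with a median log2 ratio of 1.19. Of all expressed genes 18% were lower and 13.6% higher. Over the 13 markers above 0 in both libraries, 6 were lower and 5 higher, and the median turned to -0.91. Of all genes above 0 in both, 20% were lower and 15.7% higher. The myogenic factors Myod1, Myog, Myf5 and Myf6 and the satellite cell gene Pax7 were listed at 0 in both libraries. The summed FPKM of the 18 was 65.8 in the control and 242.0 in the csMed1-/- library, most of it from Casq1, a calsequestrin (38.03 and 187.8 FPKM). Mybpc2, a fast myosin-binding protein, was at 5.25 and 23.6 FPKM. Myh1, a fast myosin, was lower as Tnni2 was, at 4.05 and 0.471 FPKM, and so was Cacna1s. The part of skeletal muscle cells in the levels of the fast troponin genes was not tested.

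Factors known to act on cardiac genes, on the splicing of their transcripts or on troponin as a protein were also listed. Their counts stand beside the 31.5% of all expressed genes that were past 2-fold, 18% lower and 13.6% higher. Of 16 transcription factors that passed the filter, 13 were within 2-fold, with a median log2 ratio of 0.03. Gata4 (87.2 and 91.6 FPKM), Nkx2-5 (146.3 and 188.4 FPKM) and Thra, a thyroid hormone receptor (79.0 and 78.7 FPKM), were among them. Tbx20, a T-box factor, was at 2.395 and 6.96 FPKM (log2 ratio 1.54), Esrra, an orphan nuclear receptor, at 127.3 and 61.4 FPKM (log2 ratio -1.05), and Myocd, the coactivator of serum response factor, at 9.24 and 4.53 FPKM (log2 ratio -1.03). Of 10 splicing regulators 9 were within 2-fold, and the exception was Rbfox1, at 2.49 and 0.124 FPKM (log2 ratio -4.33). Rbfox1 passed the filter only through the control, where it was higher. At 1 FPKM in both libraries 9 splicing regulators were left, with 0 lower and 0 higher. The files hold 1 value per gene, so splicing of Tnnt2 was not examined. Of 13 kinases and phosphatases 2 were lower and 2 higher. Tnni3k, a heart kinase named for its binding to cardiac troponin I, was at 39.9 and 9.62 FPKM (log2 ratio -2.05). Prkca and Prkcd, protein kinase C isoforms, were at 3.33 and 7.39 FPKM and at 4.25 and 9.68 FPKM. Prkd1, protein kinase D, was at 1.46 and 0.727 FPKM and passed the filter only through the control. At 1 FPKM in both libraries 12 kinases and phosphatases were left, with 1 lower and 2 higher. Prkaca, the catalytic subunit of protein kinase A, was at 326.0 and 269.1 FPKM.

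Markers of other heart cells were measured in the same libraries, beside the 31.5% of all expressed genes past 2-fold. Of 8 fibroblast markers 4 were higher and 1 lower past 2-fold, and their summed FPKM was 503.2 in the control and 1193 in the csMed1-/- library. Of 6 endothelial markers 2 were lower and 1 higher (378.5 and 299.9 FPKM summed), of 5 smooth muscle markers 2 were lower and 2 higher (723.2 and 1065 FPKM summed), and of 6 macrophage markers 1 was higher and 5 were within 2-fold (254.8 and 253.2 FPKM summed). The smooth muscle sum was carried by Cnn1, and without it, a choice made after its values were seen, the other 4 markers summed to 718.9 and 442.6 FPKM. The largest ratios among these were those of Cnn1, a calponin of smooth muscle (4.32 and 622.4 FPKM, log2 ratio 7.17), and Postn, a fibroblast matrix protein (1.57 and 27.4 FPKM, log2 ratio 4.13). Of the erythroid markers Alas2 passed the filter, at 35.8 and 82.1 FPKM. The part of cell composition in the troponin levels was not tested. The 8 cardiomyocyte genes Mybpc3, Myl2, Myl3, Ttn, Tpm1, Actn2, Des and Tcap had a median log2 ratio of -0.64. They ran from -1.79 (Tcap) to 1.37 (Des), with 3 lower and 1 higher past 2-fold. Actc1 and Myh6, also listed, gave no ratio. Against that median the log2 ratio of Tnni3 was -2.10, that of Tnnt2 -0.38, that of Tnnc1 0.97 and that of Tnni1 4.004.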

How the data were processed

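Pooled heart RNA of 5 mice per genotype gave 1 library each. Per the sources used here the authors made directional libraries of 50 nt single-end reads, placed the reads on mm10 with TopHat (2.0.8b) and took expression of known UCSC genes from Cufflinks and cuffdiff (2.1.1). The deposited values are FPKM, scaled by the authors to transcript length and mapped fragments, with the scaling between libraries not stated. The submitters' processing notes also name STAR (2.4.0h), with no role given.

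Rows sharing a symbol, as 412 symbols do, were summed. Ratios are csMed1-/- over control FPKM without a pseudocount. Expressed genes were those detected in both libraries that reached 1 FPKM in either of them. No test was made, since no genotype has a replicate. FPKM keep no read counts, so no interval for counting error could be given. The members, gene lists and motifs were chosen with earlier results of these data known. Besides the members, the text names the thin filament genes, genes among the 4 largest differences of each list and the 2 nearest expressed genes on each side of a member, and genes among the 3 nearest to a member in level (1 is not reported here), with genes listed at 0 and list members within 2-fold added after their values were seen. Alternatives were pseudocounts of 0.1 and 1, 4 scalings, other filters, the highest row of a symbol and a 4-fold threshold. Positions came from GENCODE M21 (GRCm38, the assembly of mm10) and promoters from RefSeq (GRCm38.p6). Protein sequences were not used here. The calculation was tested on simulated data. Python 3.11.15, numpy 2.4.6, pandas 2.3.3 and matplotlib 3.10.9 were used.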

Additional observations from a re-analysis of the deposited data

How the results depend on the processing

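No paired analysis was possible because each genotype has 1 pooled library, and for the same reason no replicate could be left out. Tnni3, Tnnc1, Tnni1, Tnnt1 and Tnni2 kept their direction and their side of the threshold under all 8 alternatives tried for the members, with log2 ratios from -2.79 to -2.10, 0.28 to 0.97, 2.46 to 4.004, -2.22 to -1.53 and -4.33 to -2.32. Of these alternatives, the highest row could not change any member, since each has 1 row, and the 4-fold threshold changes no ratio. Tnnt2 came inside 2-fold when centred on the median (-0.96) or scaled to cardiomyocyte genes (-0.38). With a pseudocount of 1, Tnnt3 (0.77) and Tnnc2 (0.14) came inside 2-fold, which left 1 member higher, the non-cardiac share of troponin T in csMed1-/- heart became 0.448%, where it was 0.271%, that of troponin C became 0.0226% in the control and 0.0199% in csMed1-/- heart, and the median of the skeletal muscle markers 0.89, where it was 1.19. A pseudocount of 0.1 brought Tnnc2 to 0.77, and at a 4-fold threshold Tnnt2 and Tnnc2 were inside it. Scaling to cardiomyocyte genes added 0.64 to every log2 ratio, the other scalings moved it by less than 0.1, and the cardiomyocyte scaling gave 857 lower and 3325 higher genes, where 1886 and 1423 were counted. The counts were 3182 and 2504 with every gene above 0, 885 and 821 at 10 FPKM in at least one library, and 539 and 453 at 4-fold. With every gene above 0, the median of the skeletal muscle markers turned to -0.91 and that of the atrial markers was 0.67. At 10 FPKM the median of the thick filament list was -1.07. The fibroblast median of 0.94 became 1.02 centred on the median, 1.59 scaled to cardiomyocyte genes and 1.47 at 10 FPKM. The fewer or additional genes of a filter explain its counts by construction, and the cause of the other shifts was not tested. Tnnt3 and Tnnc2, at under 1 FPKM in both libraries, were the least certain members.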

Other observations

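The genes nearest to each member in level over the 2 libraries, by Euclidean distance of log2 FPKM, were mostly of energy metabolism for the cardiac members. For Tnni3 they were Slc25a4, the adenine nucleotide carrier (9228 and 2087 FPKM, distance 0.47), Fabp3 (7224 and 2218 FPKM, distance 0.73) and Cox7a1 (5377 and 1925 FPKM, distance 0.99). For Tnnt2 they were Cyc1 (2280 and 1202 FPKM), Atp5j2 (2083 and 1190 FPKM) and Eno3 (2421 and 994.2 FPKM). For Tnnc1 they included Gapdh (5389 and 5379 FPKM) and Cox8b (6219 and 4835 FPKM). Tnni1 lay nearest to Baalc (0.965 and 9.24 FPKM), Tnnt1 to Idh1 (9.47 and 2.18 FPKM), and Hcn4 was the third gene nearest to Tnnt1. With 2 libraries such a likeness rests on 2 values per gene.

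In the control the Tnni2 value was 5.68 times that of Tnni1, and in the csMed1-/- library the Tnni1 value was 35.3 times that of Tnni2. Among the genes within 250 kb of Tnni2 and Tnnt3 were the imprinted genes H19 (18.5 and 13.0 FPKM) and Igf2 (27.2 and 10.2 FPKM, log2 ratio -1.41).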
